A study of Caenorhabditis elegans with 2 samples.

Results

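The HIF-1 pathway of Caenorhabditis elegans was examined through 8 of the 46135 genes in the deposited table, found by gene symbol or sequence name: hif-1, egl-9, vhl-1, rhy-1, cysl-1, cysl-2, phy-2 and F22B5.4. All 8 names were found in the table. Transcript levels were measured by RNA sequencing in whole larvae at the L3 stage, in 1 library from lsm-1(tm3585) mutants and 1 library from wild-type N2 animals. Both populations were synchronised as L1 larvae and kept at 25 °C for 26 hours, and the mutants had been backcrossed to N2 3 times. The LSM-1 protein is part of the ring of Lsm proteins that helps to remove the cap of messenger RNAs in the cytoplasm. The labels name no exposure to low oxygen or sulfide for either genotype. A further label of the control library reads N2 back3, which the labels do not explain, and the library is taken as wild type from its genotype label. No value has a replicate.

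HIF-1 is the transcription factor through which animals respond to low oxygen. When oxygen is present, the proline hydroxylase EGL-9 modifies HIF-1, and the ubiquitin ligase adaptor VHL-1 binds the modified protein and sends it to the proteasome. In worms a further loop acts on EGL-9: the cysteine synthase-like protein CYSL-1 binds EGL-9 and blocks its action on HIF-1, and the membrane protein RHY-1 restrains CYSL-1. Active HIF-1 raises transcripts such as cysl-2, phy-2 and F22B5.4, and also those of its own inhibitors rhy-1 and egl-9. Much of the control of HIF-1 acts on the protein, which was not measured here.

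Levels are given as FPKM, fragments scaled by transcript length and by library size, so that genes can be compared with each other within a library. Differences are log2(FPKM + 1) of mutant larvae minus that of N2 larvae, and this scale makes the differences of low genes smaller. The 14838 genes that reached an FPKM of 1 in 1 or both libraries are called measured, and the 2-fold rule counts those with a difference of at least 1 in size. The median difference of measured genes was 0.24, a factor of 1.18, and centred differences are relative to it. The mutant library held about 8.76 M fragments and the N2 library 7.14 M, as read from the spacing of low FPKM values. Intervals given below are 95% counting intervals from fragments estimated in that way. They cover counting error only and say nothing of the spread between cultures. The lsm-1 transcript itself was at 5.94 FPKM in mutant larvae and 10.2 in N2 larvae, and such a level, taken over all exons, does not show whether part of the gene is deleted.

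Of the 8 genes, cysl-2 and rhy-1 stood more than 2-fold higher in the mutant library, and F22B5.4 stood 2.01-fold lower by FPKM. The transcripts of hif-1, cysl-1 and vhl-1 were moderately higher, phy-2 was close to equal, and egl-9 was listed at 0 in the mutant. The targets therefore went in different directions in these libraries. By the 2-fold rule 2 members were higher, where 13.6% of measured genes were higher, and 1 was lower, egl-9, where 12.2% were lower. egl-9 passes that rule by construction, since at least 1 FPKM against 0 always does. So do all 2554 measured genes listed at 0 in 1 library, which these shares include. Of the 11804 measured genes with all 4 FPKM values above 0, 5.05% had a difference at least as high as that of rhy-1. After centring, only cysl-2 was higher by the rule, where 10.5% of measured genes were, and egl-9 and F22B5.4 were lower, where 14.7% were. None of the 8 passed the authors' deposited test, for which 6 had a usable status and which called 3.76% of 17570 genes, 2.35% as higher and 1.41% as lower. Of those 6, 2 had an unadjusted p under 0.05 in the authors' deposited table, as did 14.2% of all genes with a usable test. With a single library on each side, that test describes these 2 libraries rather than the genotypes.

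**Figure D1:**
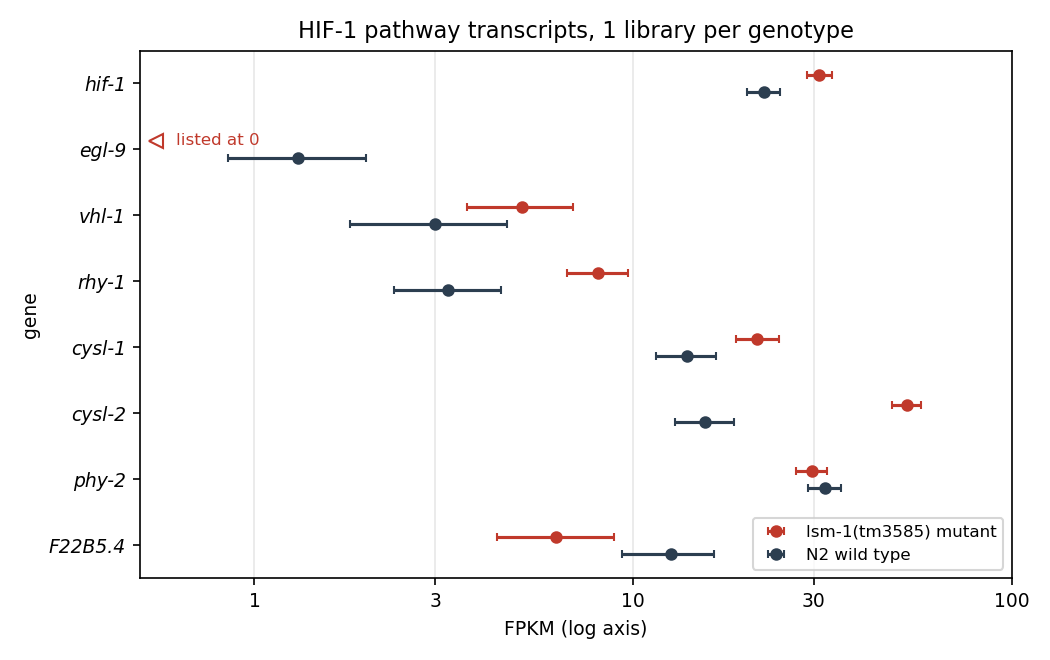
Level of each HIF-1 pathway gene in FPKM on a log axis, with the mutant library in red and the wild-type library in dark blue. Points are single libraries, bars are 95% counting intervals, and the open triangle marks egl-9, listed at 0 in the mutant; cysl-2 shows the widest gap, 52.8 against 15.5 FPKM.

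The factor and its destruction machinery are described first. The hif-1 transcript (F38A6.3, chromosome V) was at 31.1 FPKM in mutant larvae and 22.1 in N2 larvae, from about 652 and 378 fragments. Its ratio of 1.40 had an interval of 1.24 to 1.60, which lies above the factor of 1.18 shown by the median gene. Among genes with an FPKM of at least 5 the median difference was larger, at 0.34. The interval of the hif-1 difference, 0.294 to 0.651, covers that value. Its centred difference was 0.23, and 30.5% of the 11804 measured genes with all 4 FPKM values above 0 had a difference at least as high. The authors' deposited table marks the test of hif-1 as failed, and so gives the gene no usable q-value. The annotation lists 6 transcripts for hif-1, from 1576 to 2856 bases long, and the table does not resolve them. Measured by level, hif-1 is an abundant transcript here, above 90.1% of measured genes in the mutant library and above 88.1% in the wild type.

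The egl-9 transcript (F22E12.4, chromosome V), which encodes the oxygen-dependent hydroxylase, had the lowest listed value of the 8 in both libraries, although in N2 its counting interval overlaps that of vhl-1. It was listed at 0 in mutant larvae and had 1.31 FPKM in N2 larvae, from about 24 fragments. In the further pair of FPKM columns that the authors deposited from the same libraries it was listed at 0 in both. A 0 in this table may be an estimate that failed: 2554 measured genes were listed at 0 in 1 library. The authors' deposited table marks the test of egl-9 as usable but gives a log2 fold change of 0 and a q-value of 1, which does not match its 2 FPKM values. The level of egl-9 in the mutant is therefore not known from these data. Its N2 level is uncertain too, since the column pairs list 1.31 and 0 FPKM, and no fold is given.

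The vhl-1 transcript (F08G12.4, chromosome X), encoding the adaptor that recognises hydroxylated HIF-1, was at 5.09 FPKM in mutant larvae and 2.996 in N2 larvae. These values rest on about 40 and 19 fragments, and the interval of the ratio, 0.970 to 3.13, includes 1. In the authors' deposited table its q-value was 0.511. At this depth no difference was detectable for vhl-1. The level of hif-1 was 6.10 times that of vhl-1 in the mutant library and 7.39 times in the wild type, a comparison that does not depend on how the libraries are scaled.

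The genes of the loop upstream of EGL-9, rhy-1 and cysl-1, are given one by one, since RHY-1 restrains CYSL-1. The rhy-1 transcript (W07A12.7, chromosome II) was at 8.09 FPKM in mutant larvae and 3.24 in N2 larvae, a ratio of 2.499 with an interval of 1.70 to 3.64. Its difference of 1.101 was reached by 5.05% of the measured genes above 0 in all 4 columns. In the authors' deposited table rhy-1 had a log2 fold change of 1.32, an unadjusted p of 0.00527 and a q-value of 0.103, so it did not pass. Its exons overlap those of W07A12.8 on the other strand, which stood at 0.892 and 1.08 FPKM. The labels do not say whether counting used strand, so reads from the overlap cannot be assigned.

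The cysl-1 transcript (C17G1.7, chromosome X), whose product binds EGL-9, was at 21.3 FPKM in mutant larvae and 13.9 in N2 larvae. Its ratio was 1.53, with an interval of 1.23 to 1.94, and its centred difference was 0.35. Of the 11804 measured genes above 0 in all 4 columns, 22.3% had a difference at least as high. In the authors' deposited table the q-value was 0.454. Relative to hif-1 in the same library, the level of cysl-1 was 0.686 in mutant larvae and 0.627 in N2. The level of rhy-1 on that scale was 0.260 in mutant larvae and 0.146 in N2, the wider gap of these 2 genes.

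Among the targets, cysl-2 (K10H10.2, chromosome II) had the highest difference of the 8 genes. It encodes a cysteine synthase family enzyme that acts in cyanide detoxification, and it serves as a reporter of HIF-1 activity in worms. Its level was 52.8 FPKM in mutant larvae and 15.5 in N2 larvae, from about 520 and 124 fragments. The ratio of 3.40 had an interval of 2.80 to 4.19, and the difference was 1.70. Only 137 of the 11804 measured genes above 0 in all 4 columns, or 1.16%, had a difference at least as high. In the authors' deposited table cysl-2 had a log2 fold change of 1.77, an unadjusted p of 0.00555 and a q-value of 0.107, short of their call. The further FPKM pair gave a ratio of 3.39.

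The order of the members by level differed between the libraries. The order of rhy-1 and F22B5.4 was exchanged, and phy-2 went from first in the wild type to the third in the mutant, behind hif-1. In turn cysl-2 was the most abundant of the 8 in the mutant library and the third in the wild type, where phy-2 and hif-1 stood above it. Its level was 2.48 times that of its paralog cysl-1 in mutant larvae and 1.12 times in N2, where the counting intervals of the pair overlap. Part of the exons of cysl-2 overlaps those of vnut-1 on the other strand, which was at 10.03 FPKM in mutant larvae and 8.33 in N2 larvae. The part of this overlap in the difference of cysl-2 was not tested.

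The phy-2 transcript (F35G2.4, chromosome IV), encoding a catalytic subunit of the collagen proline hydroxylase of the cuticle, was nearly level. It was at 29.6 FPKM in mutant larvae and 32.1 in N2 larvae, with a ratio of 0.921 and an interval of 0.805 to 1.06 that includes 1. That interval lies below the factor of 1.18 of the median gene, and the centred difference was -0.35. The authors' deposited table marks its test as failed. Its partner in the same enzyme family, dpy-18, stood at 33.6 against 32.2 FPKM, so that the level of phy-2 was 0.882 of that of dpy-18 in mutant larvae and 0.997 in N2.

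F22B5.4 (chromosome II), a transcript known to be raised by HIF-1 in low oxygen and otherwise little described, stood lower in the mutant library. Its level was 6.25 FPKM in mutant larvae and 12.6 in N2, from about 33 and 53 fragments. The ratio of 0.496 had an interval of 0.318 to 0.798, and the difference of -0.91 was matched or exceeded on the low side by 4.82% of the measured genes above 0 in all 4 columns. In the authors' deposited table it had a log2 fold change of -1.01, an unadjusted p of 0.0561 and a q-value of 0.375. The annotation places F22B5.12, a non-coding RNA, within an intron of F22B5.4 on the same strand, and that RNA had 15.5 FPKM in mutant larvae and was listed at 0 in N2. The transcripts of F22B5.4 are short, at 573 and 616 bases.

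Set against each other, the targets stood in different proportions in the mutant and N2 libraries. The level of cysl-2 was 8.44 times that of F22B5.4 in mutant larvae and 1.23 times in N2, where their counting intervals overlap. No scaling of a whole library can alter this 6.85-fold gap between the libraries. The gap rests on about 33 and 53 fragments of F22B5.4, and no interval was computed for it. Against phy-2, the ratio of cysl-2 was 1.78 in mutant larvae and 0.483 in N2. Between neighbours in the order of levels, the counting intervals overlapped for hif-1 and phy-2, for rhy-1 and F22B5.4, and for F22B5.4 and vhl-1 in the mutant. In the wild type they overlapped for cysl-2 and cysl-1, cysl-1 and F22B5.4, rhy-1 and vhl-1, and vhl-1 and egl-9. The other neighbours were separated by more than counting error, apart from egl-9 in the mutant, whose 0 was not compared.

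**Figure D2:**
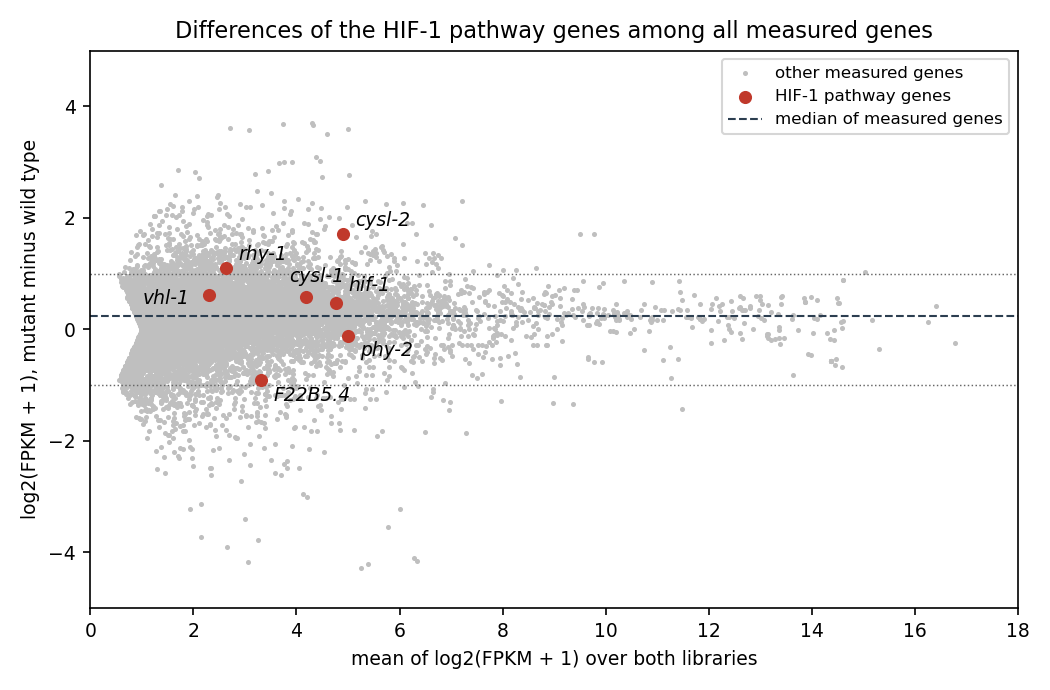
Difference in log2(FPKM + 1), mutant minus wild type, against the mean of log2(FPKM + 1) over both libraries for the 11804 measured genes with all 4 FPKM values above 0 (1 gene lies outside the axes). The 7 HIF-1 pathway genes above 0 are in red, the dashed line is the median of measured genes at 0.24 and dotted lines mark the 2-fold rule; cysl-2 stands clear of most genes of its level, and hif-1, cysl-1 and vhl-1 lie within the main cloud.

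The median difference of the 8 members was 0.53, or 0.58 for the 7 above 0 in both libraries, beside 0.24 over all measured genes. Of these 7, the counting interval of the ratio lay above the median factor for hif-1, rhy-1, cysl-1 and cysl-2. It lay below that factor for phy-2 and F22B5.4, and covered it for vhl-1. For hif-1 and cysl-1 the place above depends on the inclusion of low genes. Their difference intervals, 0.294 to 0.651 and 0.286 to 0.898, cover 0.34, the median difference of genes with an FPKM of at least 5. The intervals of rhy-1 and cysl-2 lie above 0.34. How often the intervals of all measured genes leave the median factor was not computed. Of the 11804 measured genes above 0 in all 4 columns, 30.5% and 22.3% had differences at least as high as hif-1 and cysl-1. On the low side, 26.7% had differences at least as low as phy-2.

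Other parts of the HIF-1 machinery were taken from lists of known components. The dimer partner of HIF-1, aha-1, was at 7.30 FPKM in mutant larvae and 4.05 in N2 larvae, a ratio of 1.80 with an interval of 1.28 to 2.64 and a difference of 0.72. The related factors of its family, hlh-34 and cky-1, stayed under 1 FPKM in both libraries, and ahr-1 was listed at 0 in both. All 4 subunits of the ubiquitin ligase that works with VHL-1 were measured. None passed the 2-fold rule, beside 13.6% higher and 12.2% lower among all measured genes. None of the 3 with a usable test passed the authors' test, which called 3.76% of all genes with a usable test. The test of cul-2 was marked as failed. Elongin C, encoded by elc-1, stood at 28.2 against 14.3 FPKM and the RING subunit rbx-1 at 37.3 against 21.5. The intervals of their ratios were 1.65 to 2.34 and 1.35 to 2.26. Elongin B, encoded by elb-1, stood at 15.7 against 12.1 FPKM and the cullin cul-2 at 15.9 against 15.1. The intervals of these 2, 0.886 to 1.94 and 0.906 to 1.23, include 1. The median difference of the 4 subunits was 0.56.

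Of 8 further HIF-1 responsive genes, 7 were measured. None of the 7 passed the 2-fold rule, beside 13.6% higher and 12.2% lower among all measured genes. All 8 had a usable test and none passed it, where 3.76% of all genes with a usable test did. The median difference of the 7 was 0.39. The nuclear receptor gene nhr-57, a common reporter of HIF-1 activity, was at 2.09 FPKM in mutant larvae and 1.19 in N2 larvae. About 29 and 13 fragments gave its ratio an interval of 0.915 to 3.81. The cytochrome gene cyp-36A1 stood at 1.71 against 0.737 FPKM, with an interval of 1.07 to 5.71. The sulfide oxidase gene sqrd-1 stood at 3.85 against 2.45 FPKM, and its interval of 0.904 to 2.87 includes 1. At the low end ftn-1, a ferritin gene that HIF-1 represses, stood at 8.37 against 15.6 FPKM, an interval of 0.357 to 0.794. The manganese and iron transporter gene smf-3 stood at 0.785 against 1.08 FPKM and the cysteine dioxygenase gene cdo-1 at 18.7 against 17.1. The sulfur dioxygenase gene ethe-1 stood at 5.30 against 3.82 FPKM, with an interval of 0.804 to 2.42 that includes 1, and fmo-2 was under 1 FPKM in both libraries.

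Cysteine and sulfide metabolism, in which both cysl members take part, went both ways. Of 14 measured genes among 19 found in the table, 1 was higher and 1 was lower by the 2-fold rule, beside 13.6% and 12.2% of all measured genes, and 9 lay above the median of measured genes. Among 14 genes with a usable test in the authors' deposited table, cth-1 alone was called, as lower, where 1.41% of all genes with a usable test were called lower. cth-1 encodes a cystathionine gamma-lyase, which makes cysteine from cystathionine. It was at 4.44 FPKM in mutant larvae and 15.1 in N2 larvae, a ratio of 0.295 with an interval of 0.204 to 0.413 and a q-value of 0.00237 in the authors' deposited table. Its paralog cth-2 stood at 53.4 against 36.6 FPKM.

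The paralog cysl-3 resembled cysl-2, at 12.5 FPKM in mutant larvae and 3.10 in N2. Its ratio of 4.03 had an interval of 2.57 to 6.50, and its q-value in the authors' deposited table was 0.273. Whether the cysl genes share reads was not examined. The glutamate-cysteine ligase gene gcs-1, which starts glutathione synthesis, stood at 11.2 against 5.52 FPKM with its test marked as failed, and the sulfurtransferase gene mpst-3 at 3.86 against 2.02. At the low end cysl-4 stood at 0.435 against 1.27 FPKM and the cystathionine beta-synthase family gene cbs-2 at 0.420 against 1.06, both from at most 16 fragments in a library. The gene cbs-1 was listed at 0 in both libraries with its test marked as failed, so its level is not known.

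Collagen hydroxylation, the pathway of phy-2, had 3 measured genes. Of these, dpy-18 and the lysine hydroxylase gene let-268 (8.86 against 8.05 FPKM) were nearly level, with intervals that include 1. The disulfide isomerase gene pdi-1 stood at 52.8 against 34.3 FPKM, an interval of 1.36 to 1.75. phy-3 was under 1 FPKM in both libraries. phy-4 was listed at 0 in mutant larvae and had 0.869 FPKM in N2 (0.569 and 0.754 in the further pair). The gene pdi-2, the shared subunit of these enzymes, was listed at 0 in both and was not tested by the authors. Such a 0 may be an estimate that failed, so the level of pdi-2 is not known. Of 9 iron genes, 5 were measured. None of the 5 passed the 2-fold rule, beside 13.6% higher and 12.2% lower among all measured genes. Of the 9, 4 had a usable test and none passed it, where 3.76% of all genes with a usable test did. The second ferritin gene, ftn-2, stood at 51.1 against 39.4 FPKM, opposite in direction to ftn-1. The transporter gene smf-1 stood at 3.59 against 1.88 FPKM and the ferroportin gene fpn-1.1 at 3.92 against 2.15, both with too few data for the authors' test. In the further pair smf-1 was listed at 0 in both libraries. The median difference of the measured iron genes was 0.37. The iron regulatory gene aco-1 was listed at 0 in both libraries with its test marked as failed, so its level is not known.

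**Figure D3:**
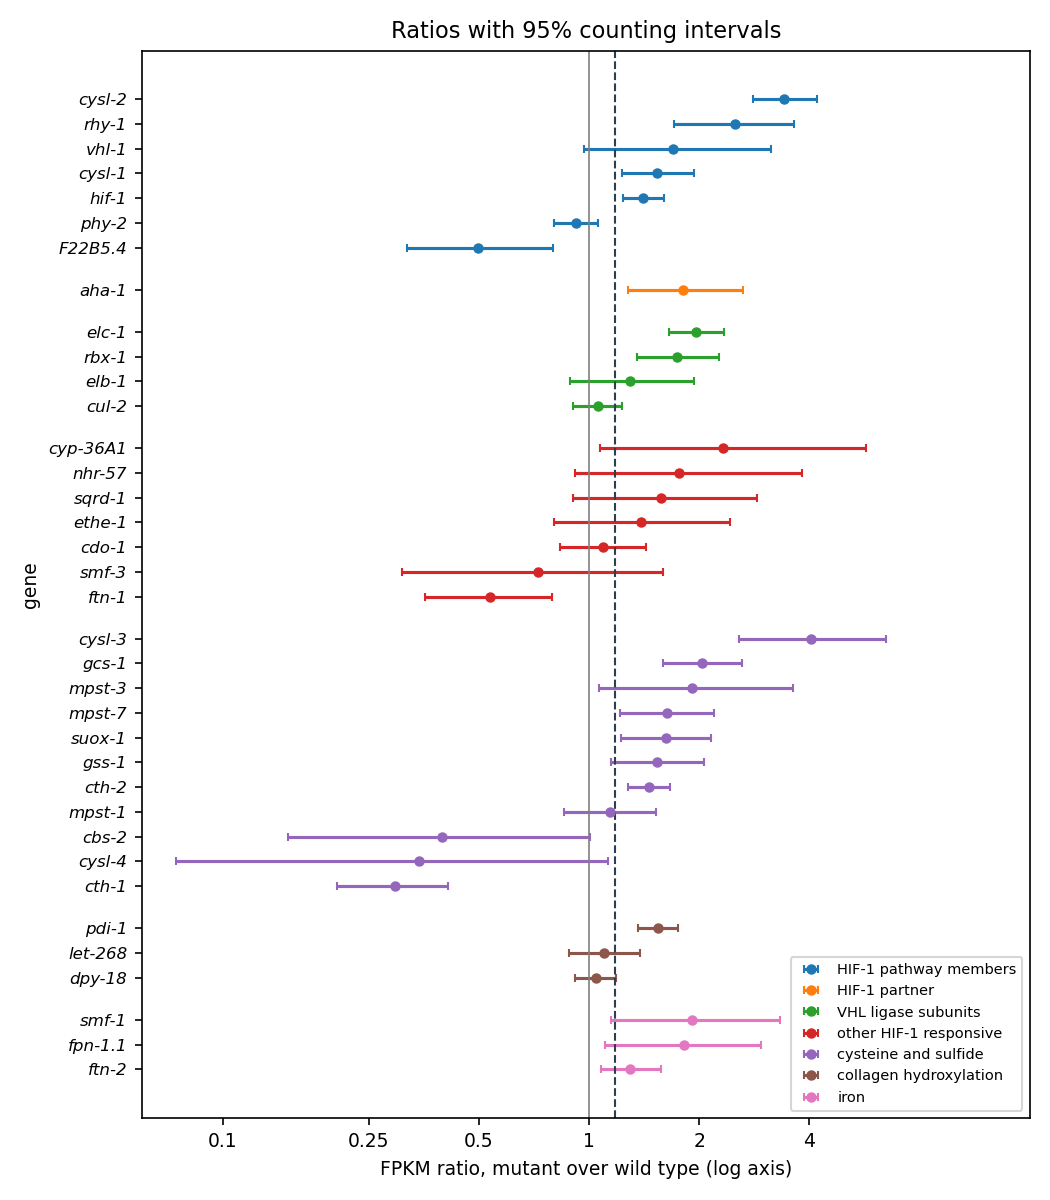
FPKM ratio of mutant over wild type on a log axis for 36 measured genes above 0 in both libraries, grouped and coloured by role, each gene drawn once. Points are ratios of single libraries, bars are 95% counting intervals, the solid line is a ratio of 1 and the dashed line is the median factor of 1.18; cysl-2 and cysl-3 lie farthest to the right and cth-1 farthest to the left.

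Whole larvae hold many tissues, so fewer cells of a type and less RNA per cell cannot be told apart. Markers of 6 tissues were read in the same libraries. All 5 germ line markers had differences below that of the median gene, and their levels summed to 32.2 FPKM in mutant larvae and 46.9 in N2. The ratio intervals of pgl-1 (0.743 to 1.06) and gld-1 (0.556 to 1.19) include 1. Those of glh-1, him-3 and glp-1 lie below 1. The epidermis list summed to 187 and 182 FPKM. Of its 4 genes with a usable test, elt-3 (16.6 against 6.06) alone passed the authors' test. Over all genes with a usable test, 2.35% were called higher. No gene of the other tissue lists passed that test. The intestine list summed to 169.5 against 115.4 FPKM, with ges-1 listed at 0 in both libraries, and the body wall muscle list to 315 against 219, with unc-15 listed at 0 in both. Within the intestine list elt-2 went the other way, at 1.41 against 2.59 FPKM. The neuron list summed to 86.9 against 55.9 FPKM, with rab-3 listed at 0 in the wild type, and the pharynx list to 23.2 against 14.3. In the further pair ifb-2 of the intestine list and rab-3 were listed at 0 in both libraries. The authors' tests of unc-15 and rab-3 were marked as failed and ges-1 was not tested, so a 0 of these genes may be an estimate that failed. The part of the tissues in the differences of the HIF-1 pathway genes was not tested.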

How the data were processed

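RNA was taken from whole L3 larvae, depleted of ribosomal RNA and made into libraries with an Illumina TruSeq RNA kit, per the labels' protocols. TopHat, Cufflinks and Cuffdiff are named in the submitters' processing notes. No version is named, and build and annotation were not given in the sources used here. Coordinates are left out for that reason. The authors deposited 1 table with 2 pairs of FPKM columns. The pair beside the authors' test was used, and the further pair served as an alternative. The authors' deposited log2 fold change, p-value and q-value were copied as they stand. The authors' deposited test score was not used for any result.

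Differences used a pseudocount of 1 and measured genes had to reach an FPKM of 1 in 1 or both libraries. There was 1 library per genotype, so no p-value was computed. Transcript lengths and overlaps came from Ensembl release 115 (WBcel235), which may differ from the authors' annotation; 40397 symbols matched. Depth was estimated as the value of 1 fragment at the main peak of low FPKM times length, over 6250 genes with 1 transcript of 1000 to 3000 bases, and tested on simulated data. Fragments are FPKM times the median transcript length times depth. Intervals of a ratio are Clopper-Pearson intervals of the mutant share of fragments, and intervals of a level are exact Poisson intervals. Genes sharing reads could not be separated. Python 3.11.15, numpy 2.4.6, pandas 2.3.3, scipy 1.17.1 and matplotlib 3.10.9 were used.

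The members and lists were chosen with earlier results of these data known. All members are named, and of each of 6 pathway lists (51 entries, 1 without a match by name) the genes past the authors' test and the 3 highest and 3 lowest measured genes, or all genes of a short list. Genes under 1 FPKM or at 0, cth-2, ethe-1, W07A12.8, vnut-1 and F22B5.12 were named after their values were seen. Sequences of the genes and promoters were not analysed here.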

Additional observations from a re-analysis of the deposited data

How the results depend on the processing

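Of 39 recomputed member differences, 34 stayed within the counting interval of the reported value, and no member changed direction. A changed pseudocount cannot change a direction, and the further pair comes from the same libraries. The 39 leave out egl-9 in the further pair, where it was listed at 0 in both libraries and has no difference. Centring gave 0.23 for hif-1, -0.35 for phy-2 and -1.44 for egl-9, and egl-9 took -3.81 with a pseudocount of 0.1 and -0.33 with 5, since it rests on a 0. By the 2-fold rule, centring left 1 member higher (cysl-2) and 2 lower (egl-9 and F22B5.4). With an FPKM of at least 5, and in the further pair, 0 were lower. The HIF-1 partner family, with aha-1 as its 1 measured gene, went from 0.72 to 0.19 without a filter, to 0.84 with a pseudocount of 0.1 and to 0.70 in the further pair. The iron list turned from 0.37 to -0.23 with an FPKM of at least 5 and -0.092 without a filter. All genes gave 0.34 with an FPKM of at least 5, 0.032 without a filter and 0.28 with a pseudocount of 0.1, and 1297 higher and 901 lower with an FPKM of at least 5. Counts of other HIF-1 responsive genes became 1 higher with a pseudocount of 0.1 and 1 lower when centred, and centring also put 1 iron gene lower. Cysteine and sulfide genes became 2 higher and 3 lower with a pseudocount of 0.1, and 2 lower in the further pair. Of the 14838 measured genes, 2701 were higher and 2362 lower with a pseudocount of 0.1. Centring put 10.5% of measured genes higher and 14.7% lower. In the further pair 1895 of all genes were higher and 1686 lower. Except for egl-9, the causes were not tested. No paired analysis was possible because each genotype had 1 library, which also allowed no leave-out. The share of promoters with a motif was not run. Depth limits the genes whose intervals include 1, such as vhl-1, nhr-57, sqrd-1, smf-3, elb-1, cysl-4 and cbs-2.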
